A study of Macaca fascicularis with 38 samples.

Results

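The genes described here are 10 members of the signalling loop that runs from cyclic AMP to the transcription factor CREB: the receptors GPR3, GPR6 and GPR12, the salt-inducible kinases SIK1, SIK2 and SIK3, the coactivators CRTC1 and CRTC2, and the factors CREB1 and CREM. They were taken by symbol from a deposited table of 29958 genes, and all 10 passed the filter of a mean of at least 1 TPM (a length-corrected share of each library's transcripts), which left 15324 genes for testing. They were chosen by their place in the pathway with the TPM values and the changes between biopsies of these libraries in view, so their values in the second biopsy against the first are given as a description, and calls in that contrast support nothing. GPR3, GPR6 and GPR12 are closely related receptors that couple to the stimulatory G protein and raise cyclic AMP without an added agonist. Cyclic AMP activates protein kinase A, which phosphorylates CREB and also inhibits the salt-inducible kinases; these kinases otherwise keep the CRTC coactivators phosphorylated and outside the nucleus. SIK1 is itself a CREB target gene, so that its product acts as feedback on the pathway, and CREB-driven transcription in neurons is widely studied for its part in plasticity and memory.

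The tissue was prefrontal cortical area 46 of cynomolgus macaques (Macaca fascicularis), sampled by biopsy before chronic ethanol self-administration and again later. The table holds 32 libraries from 16 animals, a second and a first biopsy of each: 10 drinkers (5 in cohort 13 and 5 in cohort 9) and 6 controls (3 in each cohort). The sample labels mark every library only as before or after ethanol, and the division into drinkers and controls comes from a header row above the deposited table's column names. Neither the labels nor the table state the amount drunk, the time between the biopsies, or the animals' age and sex, and the second biopsies of 6 further animals were not analysed here. Drinkers and controls both had a first biopsy before the second, so time, the first surgery and handling cannot be told apart from one another in either group.

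Each library held 14.19 to 43.43 M reads assigned to genes, with medians of 38.6 M reads in cohort 13 and 19.1 M reads in cohort 9. Among all tested genes 36.6% were called in the second biopsy against the first over the 16 animals (32.9% higher and 3.69% lower; limma with the animal as a block and Benjamini-Hochberg adjusted p below 0.05), and the median gene was higher by 0.17 on the log2 scale. With the median of every library set equal, 26.8% were called, 9.7% higher and 17.1% lower. This setting lowered the mean log2 change over all animals by the same amount for every gene. Of 5 general neuronal markers 4 were higher and 0 lower in second biopsies, and their summed level ranged from 3089 to 6445 TPM in second biopsies, against 1830 to 7183 TPM in first biopsies. With equal medians 2 were higher and 0 lower. Of 4 excitatory neuron markers 2 were higher and 0 lower, or 2 higher and 1 lower with equal medians. Their median sum was 1602 TPM in second biopsies and 1682 TPM in first biopsies. Of 4 inhibitory neuron markers 3 were higher and 0 lower, with median sums of 283 and 183 TPM. Of 5 microglial markers 0 were higher and 4 lower, and their sum ranged from 73.8 to 138.4 TPM in second biopsies and from 81.996 to 183.9 TPM in first biopsies. Of 5 blood markers 0 were higher and 4 lower, and their sum ranged from 120.4 to 8436 TPM in second biopsies and from 18.3 to 20995 TPM in first biopsies. The median blood sum was nonetheless larger in second biopsies, at 758 TPM, than in first biopsies, at 584 TPM. No marker of any cell type was at 0 throughout. Transcripts of 13 mitochondrial genes took 27.1% to 46.1% of TPM in second biopsies and 21.7% to 56.4% in first biopsies. In bulk tissue fewer cells of a type and less RNA per cell cannot be told apart, and the part of these shifts in the results below was not tested unless a value is given.

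The receptors parted company. GPR3 was higher in the second biopsy of 16 of 16 animals. GPR6, which in rodents is best known from striatal neurons, was lower in 16 of 16. GPR12, expressed widely in the brain, lay between them.

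GPR3 in drinkers had a lowest, median and highest level of 5.78, 10.4 and 16.2 TPM in second biopsies, against 2.00, 4.18 and 5.57 TPM in first biopsies. In controls the corresponding levels were 7.76, 10.8 and 13.2 TPM in second biopsies and 3.23, 3.47 and 4.98 TPM in first biopsies. The second and first biopsies did not overlap: the lowest second biopsy of all, from a cohort 9 drinker, lay above the highest first biopsy. The share of all tested genes without overlap is not given here, so how unusual this was cannot be judged. On the scale of log2(TPM + 1), used for fold changes unless another is named, GPR3 was higher by 1.26 ± 0.15 in drinkers (SE, n = 10) and by 1.26 ± 0.20 in controls (SE, n = 6). The change over all 16 animals was 1.26 ± 0.12 as deposited, 1.04 after the library medians were set equal, and 1.13 with the levels of neuronal, oligodendrocyte and astrocyte markers as covariates.

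GPR6 was a rare transcript, covered by 10 to 213 reads per library. In drinkers it had a lowest, median and highest level of 0.791, 1.52 and 2.85 TPM in second biopsies, against 1.10, 2.93 and 7.18 TPM in first biopsies. In controls it had 0.898, 1.79 and 2.24 TPM in second biopsies and 1.44, 2.59 and 6.99 TPM in first biopsies. The groups overlapped, although each animal's second value lay under its own first value. The log2 change was −0.60 ± 0.15 in drinkers and −0.66 ± 0.19 in controls (SE). For a gene this low the added 1 TPM shrinks the change; weighted limma-voom on whole reads recovered from the TPM values gave −1.13 in drinkers and −1.15 in controls. With the marker covariates the change over all animals was −0.94, larger than the deposited −0.62.

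GPR12 in drinkers had a lowest, median and highest level of 4.83, 8.09 and 12.3 TPM in second biopsies, against 3.05, 5.62 and 9.65 TPM in first biopsies. Controls had 4.88, 7.06 and 7.88 TPM in second biopsies and 4.77, 6.50 and 8.17 TPM in first biopsies, with almost complete overlap. Second biopsies were higher in 9 of 10 drinkers and 3 of 6 controls, with log2 changes of 0.46 ± 0.12 and 0.09 ± 0.16 (SE). Set to equal library medians the change over all animals was 0.11 and was no longer called.

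**Figure D1:**
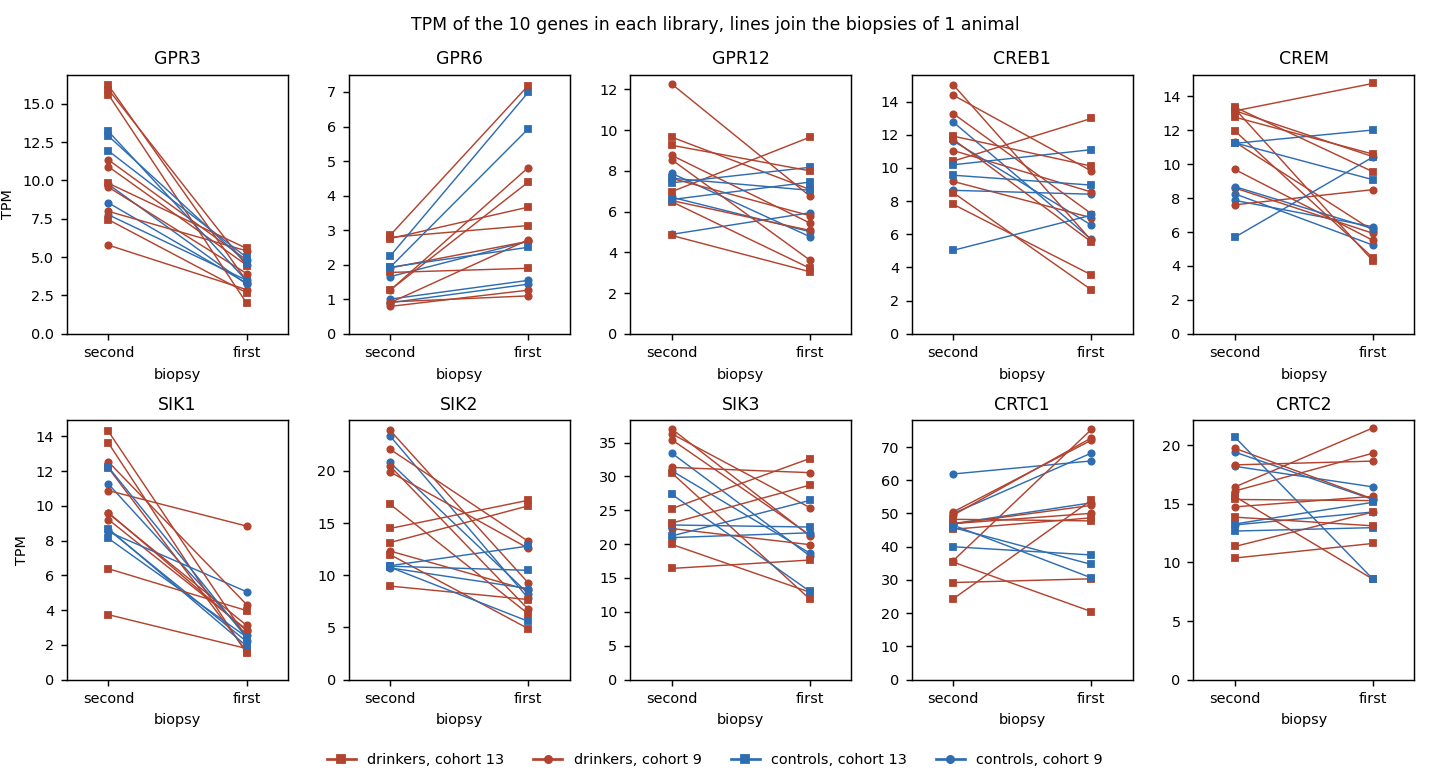
Each panel plots TPM (vertical axis, from 0) of 1 gene in the second biopsy (left) and the first biopsy (right), with a line joining the biopsies of each of 16 animals; colour marks drinkers and controls, squares cohort 13 and circles cohort 9. All 16 GPR3 values of second biopsies (5.78 to 16.2 TPM) lie above all first-biopsy values (2.00 to 5.57 TPM), and each GPR6 line is lower at the second biopsy.

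Ratios inside a library do not depend on its scaling. The ratio of GPR3 to GPR6 TPM had a median of 6.08 in second biopsies of drinkers, against 1.27 in their first biopsies, and of 6.53 in second biopsies of controls, against 1.34 in their first. Across the 16 animals the log2 of this ratio was higher in the second biopsy by 1.54 to 3.64, with a mean of 2.37 ± 0.65 (SD). Expressed as a share of the summed TPM of the 3 receptors, GPR3 made up a median of 53.6% in second biopsies and 31.7% in first biopsies, and GPR6 8.89% in second biopsies and 24.3% in first biopsies. GPR12 made up 36.6% in second biopsies and 46.3% in first biopsies, lower in 12 of 16 animals. The most abundant receptor of the family by median share was thus GPR3 in second biopsies and GPR12 in first biopsies. The summed level of the 3 receptors averaged 20.2 ± 4.16 TPM in second biopsies and 13.3 ± 4.04 TPM in first biopsies (SD, n = 16 each).

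The salt-inducible kinases also changed their balance. SIK1, the short-lived, inducible member, had the largest log2 change of the 10 genes. SIK2 and SIK3, which are present more steadily, were higher by less, and neither stayed called with the marker covariates.

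SIK1 in drinkers had a lowest, median and highest level of 3.73, 10.2 and 14.3 TPM in second biopsies, against 1.52, 2.84 and 8.83 TPM in first biopsies. Controls had 8.12, 8.65 and 12.2 TPM in second biopsies and 1.93, 2.43 and 5.06 TPM in first biopsies. In controls the second and first biopsies did not overlap, again without a share of all tested genes to set beside it. In drinkers 8 of 10 second biopsies lay above every first biopsy. The lowest second biopsy, 3.73 TPM, came from a cohort 13 drinker whose library had the fewest genes above 0, and the highest first biopsy, 8.83 TPM, from a cohort 9 drinker. SIK1 was higher in 16 of 16 animals, by 1.42 ± 0.19 on the log2 scale in drinkers and 1.52 ± 0.24 in controls (SE). The change over all animals was 1.46 ± 0.15 as deposited, 1.24 with equal library medians and 1.38 with the marker covariates.

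SIK2 had a lowest, median and highest level of 8.96, 15.6 and 23.9 TPM in second biopsies of drinkers, against 4.88, 8.93 and 17.2 TPM in their first biopsies. Controls had 10.7, 10.9 and 23.3 TPM in second biopsies and 5.58, 8.48 and 12.8 TPM in first biopsies. It was higher in 13 of 16 animals, by 0.64 ± 0.14 on the log2 scale (SE), of which 0.20 remained with the marker covariates, where the call was lost. SIK3 was the most abundant kinase, with a mean of 27.1 ± 6.51 TPM in second biopsies and 21.4 ± 6.18 TPM in first biopsies (SD, n = 16). Its log2 change of 0.34 ± 0.12 (SE) fell to 0.13 with equal medians and 0.01 with the marker covariates, and both ended the call, as did leaving out any 1 of 8 animals (0.28 to 0.33 on the log2 scale).

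Within the family SIK1 made up a median of 18.8% of the summed kinase TPM in second biopsies and 8.12% in first biopsies, and its share was larger in 15 of 16 animals. The exception was the cohort 9 drinker with the high first biopsy. SIK3 made up 51.4% in second biopsies and 63.5% in first biopsies, smaller in 16 of 16 animals. SIK2 stayed near the same share, with a median of 29.2% in second biopsies and 27.9% in first biopsies.

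**Figure D2:**
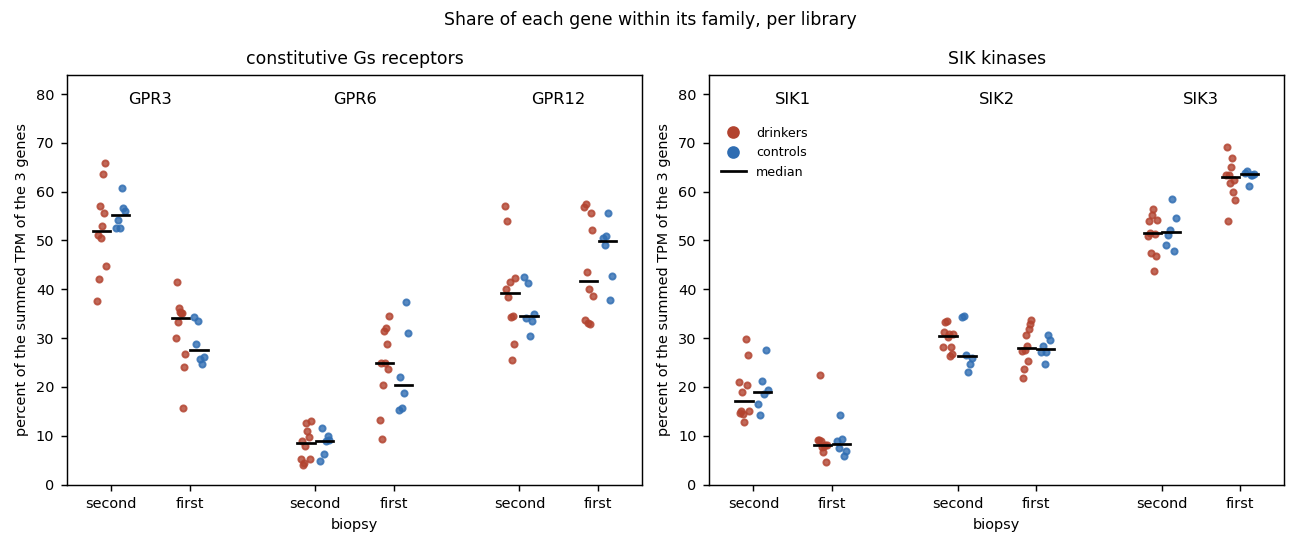
Points give, for every library, the percent of the summed TPM of 3 receptors (left panel) or 3 kinases (right panel) that each gene contributed, in second and first biopsies of drinkers and controls; black bars are medians. GPR3 and SIK1 took larger shares in second biopsies (53.6% and 18.8% by median over all animals, against 31.7% and 8.12% in first biopsies), while GPR6 and SIK3 took smaller ones.

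CRTC1 was the most abundant of the 10 transcripts by mean TPM, and neither it nor CRTC2 was called over all animals. CRTC1, the form enriched in neurons, had a lowest, median and highest level of 24.3, 46.0 and 50.5 TPM in second biopsies of drinkers, against 20.5, 51.2 and 75.3 TPM in their first biopsies. Controls had 39.97, 46.7 and 61.9 TPM in second biopsies and 30.6, 45.4 and 68.2 TPM in first biopsies. The ranges overlapped throughout. The log2 change over all animals was −0.16 ± 0.12 (SE), which was not called, but −0.37 with equal library medians, which was. Within the cohorts the log2 change was 0.07 ± 0.19 in cohort 13 and −0.38 ± 0.11 in cohort 9 (SE, n = 8 each), and 3 of 8 cohort 13 animals and 8 of 8 cohort 9 animals were lower at the second biopsy.

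CRTC2, the more widely expressed form, averaged 15.6 ± 3.08 TPM in second biopsies and 14.8 ± 3.46 TPM in first biopsies (SD, n = 16). It was higher in 7 animals and lower in 9, and its log2 change of 0.09 ± 0.10 (SE) as deposited had the opposite sign, −0.13, with equal medians. CRTC3, the family member outside the 10, averaged 13.2 ± 3.73 TPM in second biopsies and 12.6 ± 3.55 TPM in first biopsies, and its log2 change of 0.07 ± 0.09 (SE) was not called. CRTC1 made up a median of 58.9% of the summed CRTC TPM in second biopsies and 64.3% in first biopsies.

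CREB1, the factor that protein kinase A phosphorylates, had a lowest, median and highest level of 7.80, 11.4 and 15.01 TPM in second biopsies of drinkers, against 2.65, 7.12 and 13.0 TPM in their first biopsies. Controls had 5.03, 9.87 and 12.8 TPM in second biopsies and 5.68, 7.78 and 11.1 TPM in first biopsies. The groups overlapped in both, with 9 of 10 drinkers and 4 of 6 controls higher at the second biopsy. The lowest first biopsy of drinkers and the lowest second biopsy of controls carry another RNA code than most of their cohort. Log2 changes were 0.65 ± 0.16 in drinkers and 0.23 ± 0.20 in controls (SE). Over all animals the change of 0.49 ± 0.13 became 0.28 with equal medians, still called, and 0.15 with the marker covariates, where it was not.

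CREM encodes activators and, from an internal promoter, the short repressor ICER; gene-level values cannot separate them. It had a lowest, median and highest level of 7.60, 12.4 and 13.4 TPM in second biopsies of drinkers, against 4.30, 7.30 and 14.8 TPM in their first biopsies. Controls had 5.70, 8.47 and 11.3 TPM in second biopsies and 5.23, 7.70 and 12.02 TPM in first biopsies. The 5 cohort 13 drinkers lay between 11.97 and 13.4 TPM in second biopsies, against 4.30 to 14.8 TPM in their first biopsies, and in controls the groups overlapped. The 2 lowest of these drinkers' first biopsies, 4.30 and 4.48 TPM, carry another RNA code than the rest. The log2 change was 0.54 ± 0.15 in drinkers and 0.12 ± 0.20 in controls (SE), and over all animals the log2 change was 0.38 ± 0.13 (SE); its call was lost with equal medians, at 0.16, and without any 1 of 4 animals (0.31 to 0.36).

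**Figure D3:**
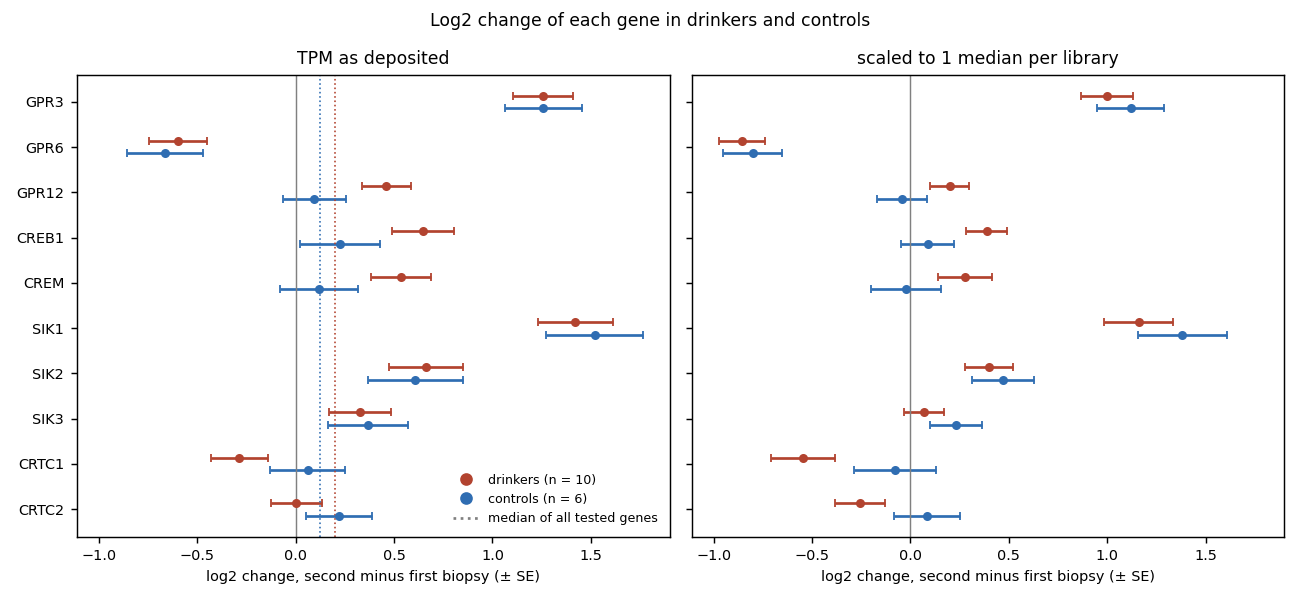
Log2 change of each gene (horizontal axis, second minus first biopsy on the log2(TPM + 1) scale) with its SE, in drinkers (n = 10) and controls (n = 6), for TPM as deposited (left) and after setting library medians equal (right); dotted lines mark the median of all tested genes. SIK1 and GPR3 stand to the right and GPR6 to the left in both groups and on both scales, while CRTC2 in drinkers moves across 0.

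In the count of calls over all animals, 7 of the 10 genes were called higher and 1 lower, beside 36.6% of all tested genes called; CRTC1 and CRTC2 were not called. With equal medians 6 were called, beside 26.8% of all tested genes (9.7% higher and 17.1% lower). SIK1, SIK2, CREB1 and GPR3 were higher, and GPR6 and CRTC1 lower. Drinkers alone gave 7 calls, 6 higher and 1 lower, beside 35.9% of tested genes called (32.7% higher and 3.23% lower). Controls alone gave 2, SIK1 and GPR3, beside 0.3%; without 1 of the cohort 9 controls the call for SIK1 was lost, at a log2 change of 1.47. With equal medians GPR6 was also called in controls, lower, at a log2 change of −0.80, beside 0.581% of tested genes. The authors' deposited table gives log2 fold changes of 1.48 in drinkers and 1.71 in controls for SIK1, of 1.22 in drinkers and 1.33 in controls for GPR3, and of −1.13 in drinkers and −1.11 in controls for GPR6.

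By mean TPM the order in second biopsies was CRTC1 (43.9), SIK3 (27.1), SIK2 (15.7), CRTC2 (15.6), GPR3 (10.9), CREB1 (10.7), CREM (10.5), SIK1 (9.96), GPR12 (7.63) and GPR6 (1.68). In first biopsies it was CRTC1 (50.9), SIK3 (21.4), CRTC2 (14.8), SIK2 (9.79), CREM (8.09), CREB1 (7.56), GPR12 (6.01), GPR3 (3.92), GPR6 (3.37) and SIK1 (3.12). In second biopsies SIK2 and CRTC2, and GPR3, CREB1, CREM and SIK1, differed by less than their SDs (2.45 to 5.22 TPM). In first biopsies the same held for CREM and CREB1 and for GPR3, GPR6 and SIK1, with SDs of 1.02 to 3.04 TPM. SIK1 had the lowest mean of the 10 in first biopsies, within these SDs, and lay near the level of CREB1 in second biopsies. Its low rank held in cohort 13, with 2.26 TPM against 4.46 TPM for GPR6. In cohort 9 first biopsies GPR6 was lower, with 2.28 TPM against 3.97 TPM for SIK1.

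Whether the change differed between drinkers and controls was tested directly, and none of the 10 genes was called in a comparison in which 0.0% of all tested genes were (0 genes by limma on TPM and by limma-voom, and 1036 by limma at an unadjusted p below 0.05). The largest differences, drinkers minus controls, were 0.42 ± 0.26 for CREB1 (SE; 95% interval −0.12 to 0.96; limma adjusted p = 0.634) and 0.42 ± 0.25 for CREM (adjusted p = 0.634), where leaving out 1 cohort 13 control gave 0.24. That control's second biopsy and the first biopsies of 2 cohort 13 drinkers carry another RNA code than the rest of their cohort. CREM in these libraries was 5.70, 4.30 and 4.48 TPM, and CREB1 was 5.03, 3.55 and 2.65 TPM. Every other cohort 13 library had at least 9.09 TPM of CREM and 5.54 TPM of CREB1. In these 2 drinkers the log2 change was 1.43 and 1.24 for CREM and 0.95 and 1.38 for CREB1. In this control it was −0.77 for CREM and −0.43 for CREB1. A fit of the 13 animals whose biopsies share an RNA code also called 0 of the 10 genes, beside 0.0% of all tested genes. That count does not give the part of the RNA code in the CREB1 and CREM differences, which was not tested otherwise. GPR12 differed by 0.37 ± 0.20 (limma adjusted p = 0.634) and CRTC1 by −0.35 ± 0.24 (adjusted p = 0.651). The same 2 drinkers' first biopsies had the lowest GPR12 levels of all libraries, 3.05 and 3.22 TPM. The same control's second biopsy had 6.59 TPM, against 7.64 and 7.42 TPM in the other cohort 13 controls. The part of the RNA code in the GPR12 difference was not tested. For SIK1 the difference was −0.10 ± 0.31 with an interval of −0.74 to 0.55 (limma adjusted p = 0.918). That interval holds differences of either sign, so the groups were not shown to change alike.

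In second biopsies alone CREM was higher in drinkers than in controls by 0.35 ± 0.14 (SE; 95% interval 0.06 to 0.64), with an unadjusted limma p of 0.0194 and an adjusted p of 0.675; without the same cohort 13 control the difference was 0.21. The second biopsy of that control had 5.70 TPM, against 11.3 and 11.2 TPM in the other cohort 13 controls. It was the only second biopsy with its RNA code, so code and group cannot be told apart for that library. CREM averaged 11.5 ± 2.13 TPM in second biopsies of drinkers and 8.83 ± 2.13 TPM in those of controls (SD). CRTC1 was −0.25 ± 0.13 (adjusted p = 0.675) and SIK1 0.03 ± 0.21 (adjusted p = 0.987), both by limma. No gene of the table was called there (0.0%; 1084 at an unadjusted p below 0.05). In first biopsies the later drinkers and the controls differed by −0.19 to 0.13 over the 10 genes, and no gene was called in the table (0.0%; 218 at an unadjusted p below 0.05).

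The cohorts were compared for their changes and for their starting levels. GPR3 changed more in cohort 13, by 0.50 ± 0.21 (SE; 95% interval 0.06 to 0.94; limma adjusted p = 0.637), with changes of 1.51 in cohort 13 and 1.01 in cohort 9. SIK2 changed less in cohort 13, by −0.59 ± 0.26 (limma adjusted p = 0.644), with changes of 0.34 in cohort 13 and 0.94 in cohort 9. CRTC1 differed by 0.45 ± 0.22 (limma adjusted p = 0.658) and SIK1 by 0.45 ± 0.28 (adjusted p = 0.666). None passed the threshold, which 0.0131% of all tested genes did.

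In first biopsies CRTC1 was lower in cohort 13, at 38.0 ± 11.3 TPM, than in cohort 9, at 63.7 ± 10.2 TPM (SD, n = 8 each). The log2 difference was −0.77 ± 0.18 (SE; limma adjusted p = 0.00848), and CRTC1 was the only one of the 10 genes called, beside 16.2% of all tested genes (4.44% higher and 11.8% lower). With equal library medians 33.7% were called, 20.5% higher and 13.3% lower, among them GPR6 and CREM higher and CRTC1 lower. By the same test GPR6 was higher in cohort 13 by 0.72 ± 0.25 (adjusted p = 0.0527), CRTC2 lower by a log2 difference of −0.44 ± 0.15 (adjusted p = 0.0565) and SIK1 lower by −0.54 ± 0.21 (adjusted p = 0.0877). CREM differed by 0.36 ± 0.22 (limma adjusted p = 0.287). GPR6 passed the threshold when any 1 of 4 animals was left out, CRTC2 when any 1 of 3 was, and SIK1 when 1 animal was, with log2 differences of 0.77 to 0.86, −0.50 to −0.47 and −0.63. All 8 first biopsies of cohort 9 carry 1 RNA code and those of cohort 13 carry a pair of others, and cohort 13 was sequenced more deeply, so cohort, the RNA code in the sample titles and depth cannot be told apart.

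**Figure D4:**
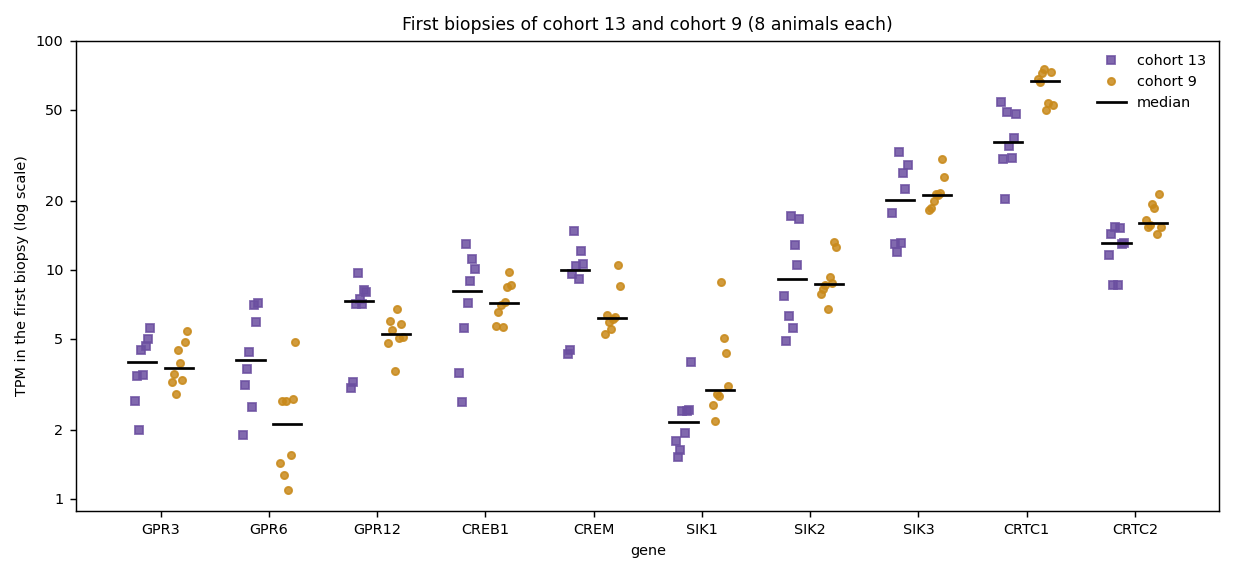
TPM in the first biopsy (vertical log axis) of each gene in cohort 13 (squares) and cohort 9 (circles), 8 animals each, with black bars at the medians. CRTC1 shows the clearest step, with 38.0 TPM on average in cohort 13 and 63.7 TPM in cohort 9.

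The rest of the pathway was described by 6 lists, counted in the second biopsy against the first over all animals; beside them, 32.9% of all tested genes were called higher and 3.69% lower, or 9.7% higher and 17.1% lower with equal medians. Among 12 tested G-protein and adenylyl cyclase genes 1 was called higher, ADCY10, the soluble cyclase (0.25 log2), and 0 lower; with equal medians 0 were higher and 1 lower. Among 13 phosphodiesterases, which break down cyclic AMP, 1 was higher, PDE1C (0.37), and 0 lower; with equal medians 0 were higher and 2 lower. PDE4B and PDE4D, major brain phosphodiesterases, had log2 changes of 0.21 and 0.29 that were not called. The medians of both lists, 0.20 and 0.16, lay near the 0.17 of all tested genes.

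Among 10 protein kinase A subunits, inhibitors and anchors 7 were higher and 1 lower, beside 32.9% and 3.69% of all tested genes. The catalytic subunit gene PRKACB averaged 143.8 ± 34.8 TPM in second biopsies and 105.4 ± 61.1 TPM in first biopsies (SD, n = 16), and the regulatory subunit gene PRKAR2B 41.1 ± 12.7 TPM in second biopsies and 29.9 ± 16.4 TPM in first biopsies. PKIG, an inhibitor of the kinase that was singled out after its values were seen, was the gene called lower, at a log2 change of −0.22 and in 15 of 16 animals. With equal medians 1 remained higher, PRKAR2B, and 1 lower. Of 15 genes listed with regulators of SIKs and CRTCs and SIK substrates 8 were higher and 0 lower, beside the same 32.9% and 3.69%. The largest changes were those of the kinase NUAK1 (0.72) and the class IIa deacetylase HDAC9 (0.47), the pair called higher with equal medians. Its place in the list does not show that NUAK1 acts on SIKs or CRTCs.

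Among 11 CREB partners and coactivators 4 were higher and 0 lower, near the 32.9% of all tested genes called higher; with equal medians 3 were higher and 1 lower. TRIB2 and TRIB1, pseudokinases better known for steering proteins to degradation than for binding CREB, were at the top, TRIB2 with 45.5 ± 8.67 TPM in second biopsies and 24.6 ± 9.45 TPM in first biopsies, higher in 16 of 16 animals. Known CREB target genes had the largest median change of the 6 lists: 18 of 22 were higher and 0 lower, beside 32.9% and 3.69% of all tested genes, with a median log2 change of 0.63 beside 0.17 for all tested genes, and 12 higher and 1 lower with equal medians. In drinkers 14 of the 22 were called higher, beside 32.7% of all tested genes, and in controls 2, beside 0.248%; the medians were 0.65 in drinkers and 0.58 in controls. The targets, like the other lists, were chosen with earlier results of these data known, so their counts and medians are a description. No target was called in the change of drinkers minus that of controls.

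Of the named targets PCSK1, a prohormone convertase, averaged 71.9 ± 27.9 TPM in second biopsies and 34.4 ± 26.5 TPM in first biopsies (SD, n = 16). PER2, a circadian repressor with a CREB site in its promoter in rodents, averaged 12.7 ± 2.72 TPM in second biopsies and 5.06 ± 1.37 TPM in first biopsies and was higher in 16 of 16 animals. FOS, an immediate early gene, had a log2 change of 1.15 but varied widely, from 16.6 to 169.4 TPM in second biopsies and from 3.62 to 219.5 TPM in first biopsies, and its call was lost with equal medians. NR4A1, an orphan nuclear receptor of the same early class, averaged 34.6 ± 11.7 TPM in second biopsies and 17.4 ± 9.31 TPM in first biopsies. BDNF, the neurotrophin, averaged 9.06 ± 3.09 TPM in second biopsies and 5.42 ± 3.11 TPM in first biopsies and was higher in 12 of 16 animals.

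Over the 16 animals the genes whose log2 changes tracked that of SIK1 most closely were NR4A1 (Pearson r = 0.87), MIDN (0.85), FRAT2 (0.84) and DUSP5 (0.83). NR4A1 was also first with equal library medians, at r = 0.84, and r was 0.95 within cohort 13 and 0.71 within cohort 9. For GPR3 the closest were SARDH (0.85), FOSL2 (0.84), ELL (0.84), CELF1 (0.83) and LOC107127269 (0.81). With equal medians these r were 0.69 to 0.80 and SARDH ranked 42nd; within cohort 13 they were 0.83 to 0.94 and within cohort 9 0.27 (ELL) to 0.82. CREB1 behaved differently from SIK1 and GPR3, which had 0 genes with r above 0.9. For CREB1 1182 genes passed that r, led by METTL4, HACE1, TRAPPC8, TRIM52 and EDEM3 at 0.98. CREM had 575, SIK2 510, SIK3 377, CRTC1 70, CRTC2 51, and GPR6 and GPR12 13 each. After medians were set equal the counts were 235 for CREM, 220 for CRTC1, 209 for CREB1 and 118 for CRTC2. SIK2 then had 14, SIK3 8, GPR12 1, and GPR6, SIK1 and GPR3 0. CREB1 thus had the largest count only as deposited. The count for a typical tested gene and the part of the RNA code in these counts were not tested. The r values and counts are descriptions across animals that share library depth and tissue content.

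Between members, the change of SIK1 was related to that of each of the other 9. For GPR3 over 16 animals Pearson r was 0.66 and Spearman rho 0.72, given as a description because both genes were chosen with these changes in view; without the 2 animals farthest from the median of SIK1, r was 0.66. Within cohort 13 r was 0.83 and within cohort 9 −0.07 (n = 8 each), so the relation did not hold in cohort 9, and with equal library medians r was 0.61 and rho 0.61. For the other 8 members r lay between −0.17 and 0.38 as deposited and between −0.51 (GPR12) and 0.42 (CRTC1) with equal medians.

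**Figure D5:**
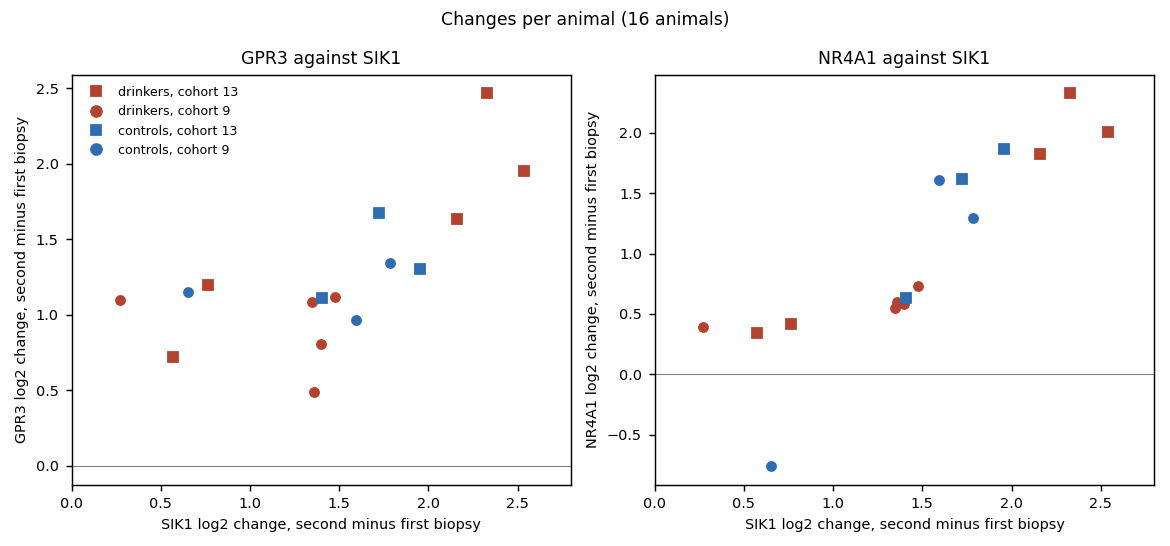
Log2 change of GPR3 (left) and of NR4A1 (right) in each of 16 animals against that of SIK1 (horizontal axis), second minus first biopsy; squares are cohort 13, circles cohort 9, red drinkers and blue controls. The GPR3 points follow SIK1 in cohort 13 (r = 0.83) and show no slope in cohort 9 (r = −0.07), and the NR4A1 points follow it in both (r = 0.95 and 0.71).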

How the data were processed

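RNA was sequenced from area 46 biopsies; per the labels' protocols, libraries were polyA-selected, single-end and made without strand information, so reads of overlapping genes on opposite strands cannot be told apart. The authors deposited TPM values per gene and library, per the file headers, and their own log2 fold changes with p-values, per the file headers. STAR 2.5.2b, HTSeq 0.6.1p1 and DESeq2 are named in the submitters' processing notes; which build and gene models they used is not given in the sources used here. Symbols were used as in the table, and all 10 members matched RefSeq symbols; no sequences or coordinates were used.

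Here log2(TPM + 1) was fitted with limma 3.58.1 (R 4.3.3), trend and animal block, over the 15324 genes averaging 1 TPM or more, with Benjamini-Hochberg adjustment over all of them. Pseudocounts of 0.1, no filter, equal library medians, marker covariates and leaving out each animal were alternatives. Whole reads were recovered from the TPM steps for 29436 of 29437 genes above 0 in 2 or more libraries (tolerance 1e-06 of a read) and used for limma-voom and depth. Biopsies were paired by animal number in the labels: the residual correlation within an animal was −0.06 to 0.70 (median 0.52), above 0.1 in 14 of 16 animals. Between biopsies of different animals of 1 cohort the median was 0.24, so passing 0.1 does not by itself show a correct pair. Fits were checked on simulated data.

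The members, the pathway lists and the marker lists were chosen with earlier results of these data known. Text names all members, up to 4 genes per list by the size of a called change, and CRTC3, PDE4B, PDE4D, NR4A1, FOS and BDNF. For SIK1, GPR3 and CREB1 it names the genes with the highest Pearson r of the log2 change over the 16 animals, up to 5 each; 1 result is not reported here. The labels name 1 library per biopsy, so p-values measure the spread between animals as sampled. Python 3.11.15 with numpy 2.4.6, pandas 2.3.3 and scipy 1.17.1 was used for summaries.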

Additional observations from a re-analysis of the deposited data

Results flagged for a closer look

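In 60 groups of animals examined for a value standing apart, 3 were found, all among the 6 controls, and chance gives about 1 in 20. In first biopsies of controls SIK1 was highest in a cohort 9 animal, at 2.598 on the log2(TPM + 1) scale, against 1.83 in the next animal. CRTC2 changed most in a cohort 13 control, with a log2 change of 1.18 against 0.32 in the next control. That animal also had the lowest CRTC2 level in first biopsies of controls, 3.26 on the log2(TPM + 1) scale, against 3.80 in the next; its biopsies carry different RNA codes, and the part of this was not tested.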

How the results depend on the processing

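Counts are of the 10 genes called. For all 16 animals, 8 were called, beside 36.6% of all tested genes. Without a replicate block (animals unpaired) 5 were, beside 18.9%, and with the marker covariates 3, beside 2.79%. In cohort 13 alone 2 were called. Leaving out 1 animal gave 6 to 8, with SIK3 and CREM among those lost. In drinkers, 7 were called, beside 35.9% of all tested genes. Animals whose biopsies share an RNA code gave 3, beside 10.6%, and marker covariates 3, beside 0.907%. Cohort 13 alone gave 2, and leaving out 1 animal 7 to 8. In controls, 2 were called, beside 0.3% of all tested genes. Equal medians, limma-voom and marker covariates each gave 3, with GPR6 lower, beside 0.581%, 0.653% and 0.196%. Cohort 9 alone gave 1, cohort 13 alone 0, and leaving out 1 animal 1 to 2 (SIK1 was lost without 1 cohort 9 animal). For first biopsies of cohort 13 against cohort 9, 1 was called, beside 16.2% of all tested genes. Equal medians gave 3, beside 33.7%, no filter 2, beside 12.7%, and limma-voom 5, beside 32.8%. Leaving out the cohort 13 drinkers whose second biopsies had the fewest and most genes above 0 (chosen after seeing the data) gave 2. Leaving out 1 animal gave 1 to 3. Over all genes, the 5608 calls in all animals became 2889 without the block, 3541 by limma-voom, 427 with covariates and 26 in cohort 13 alone; the 5500 in drinkers became 2443, 1617 with 1 RNA code, 139 with covariates and 15 in cohort 13 alone. The 46 in controls ranged from 0 (cohort 13 alone) to 100 (limma-voom), and the 2485 of the first biopsies became 5170 with equal medians, 3741 without the filter and 5025 by limma-voom; the 2 for the cohort difference in change ranged from 0 to 8. The SIK1 difference between drinkers and controls in second biopsies, 0.03, became −0.067 with equal medians and −0.054 with limma-voom, and −0.041 to 0.16 when 1 animal was left out; for its change the difference was −0.27 to 0.030. The cause was not tested for any of these. Low reads limit GPR6, at 10 to 213 per library.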
